A study of Rattus norvegicus with 16 samples.

Results

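The genes of the cytosolic ribosomal proteins were followed in dorsal root ganglia of rats during the growth of a bone tumor. They were taken as every listed gene whose symbol is Rpl or Rps followed by a number, with or without a final a, x or y, together with Rplp0, Rplp1, Rplp2 and Rpsa. This gave 78 of the 21021 genes listed in each sample, 46 of the large and 32 of the small ribosomal subunit. They carry 77 distinct symbols, because Rps19 is listed under gene IDs 29287 and 108348115. A total of 76 members, 45 large and 31 small, reached the minimum level and were among the 14023 genes tested, and Rpl35a and Rps14 did not.

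All animals were adult female Sprague-Dawley rats. In the tumor groups Walker 256 mammary gland carcinoma cells had been placed into the left tibia (tibial tumor cell implantation, TCI), and ganglia were taken on day 1, 7 or 14 (TCI day 1, TCI day 7, TCI day 14). Sham rats received an injection without living tumor cells, named as PBS in the sample labels and as boiled tumor cells in the study's methods, and were sampled on day 14 only. On days 1 and 7 tumor and time since surgery therefore cannot be told apart. Each group had 4 samples, and a sample was the pooled lumbar ganglia L3 to L5 of the injected side of 1 rat. Sensory neurons, their satellite glia, Schwann cells, blood vessels and immune cells all contribute to such a sample. In such tissue a change in the number of cells of a type and a change in RNA per cell cannot be told apart. Values are FPKM, in which fragment counts are divided by transcript length and by the library's mapped total, and the number of reads behind a value is not known.

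A ribosome is built from rRNA and a fixed set of proteins, nearly all of which are present as a single copy in each particle. Cells hold the amounts of these proteins close to each other, and proteins left without a partner are degraded. The mRNAs of ribosomal proteins are among the most abundant of any cell, and most begin with a stretch of pyrimidines, the 5′ terminal oligopyrimidine (TOP) motif, through which growth signals acting by way of mTOR and the RNA-binding protein Larp1 set their translation. In sensory neurons part of this mRNA is found in axons. The question put to the data was whether the members moved together across the tumor course or one by one.

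The bases around the annotated transcription start are shown because the pyrimidine stretch is the best known shared feature of the family. Rps18, Rps2, Rps21 and Rpl38 were taken from the 2 ends of the day 7 changes. Rps12 and Rpl36a were added because they rose relative to the mean of the members on days 7 and 14, not because their rise was the largest. The sequences are from RefSeq on the GRCr8 build. Each window has 30 bases on the strand of the gene, the first 20 before the annotated start and the last 10 from the start on, and capitals mark the longest run of a C followed by at least 5 bases that are C or T.
Rps18, chr20:4933725-4933754, plus strand: aactacacgtcacttccgCTCTCTCTTCCa
Rps2, chr10:14251828-14251857, plus strand: gCCTCCCTCTTCTTTTTCTTCgggaaaaca
Rps12, chr1:23500055-23500084, plus strand: catgcgcacagaagcccagcagagcgctta
Rpl36a, chrX:102059429-102059458, plus strand: aggcaccgcctataaacttccgttgctgct
Rps21, chr3:187724018-187724047, plus strand: tggaagaacgagccaCTTCCTTTCTgtgtt
Rpl38, chr10:100200415-100200444, plus strand: ggaagcttcgttCTTTTTCCgttgttcggt

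Such a run was present in the windows of Rps18, Rps2, Rps21 and Rpl38, and these letters were not found in the windows of Rps12 and Rpl36a. Of the 59 members with an entry, 46 held a run on the gene's strand (78%), 28 of 36 large and 18 of 23 small subunit genes, against 22% of all 27457 genes with an entry. On day 7 the median log2 fold change against sham was 0.47 for the 44 tested members with a run and 0.48 for the 13 tested members without one, and on day 14 it was 0.37 and 0.36. The run was thus more frequent in the family than in other genes, while members with and without it in this window had nearly the same median change.

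The members were among the most abundant mRNAs of the ganglion. In sham, 72 of the 78 had a mean of at least 50 FPKM and 63 were among the 500 genes with the highest mean. The highest was Rpl13a, a large subunit protein also known for holding back translation of some inflammatory mRNAs, at 476 ± 14.7 FPKM (SD, n = 4), followed by Rpl41, the smallest of the ribosomal proteins, at 430 ± 15.7 and by Rps16 at 402 ± 8.11. The study's methods left out TCI day 1 sample 2 and TCI day 7 sample 3 from its comparisons, and the results here rest on the other 14 samples unless 16 are named. The left-out day 7 sample stood apart. Its 15 skeletal muscle markers summed to 27000 FPKM against 241 to 314 FPKM in all other samples but sham sample 4, which reached 898 FPKM. It also had the highest ribosomal protein level of all 16 samples. With all 16 samples in the fit, 70 of 77 tested members were higher than in sham on day 7 (14.5% of all genes) and 62 on day 14 (8.86%). Without sham sample 4 the counts were 70 and 66 of 76.

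The summed FPKM of the members rose as a share of each sample's total. In sham the share was 3.70%, 3.62%, 3.63% and 3.74%, and in TCI day 1 it was 3.89%, 3.85% and 3.94%, with 4.02% in the left-out sample. In TCI day 7 it was 5.04%, 4.65% and 4.97%, with 5.87% in the left-out sample, and in TCI day 14 it was 4.36%, 4.86%, 4.81% and 4.59%. Every sample of each tumor day lay above every sham sample, the day 1 samples only slightly, and the day 7 and day 14 samples overlapped each other.

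The median member had 209 to 213 FPKM in the sham samples and 221 to 227 FPKM in those of TCI day 1. TCI day 7 samples were at 273 to 302 FPKM and TCI day 14 samples at 253 to 290 FPKM. The rise in the map of members by sample runs through nearly every row, and within days 7 and 14 it is the whole column that is darker or lighter.

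**Figure D1:**
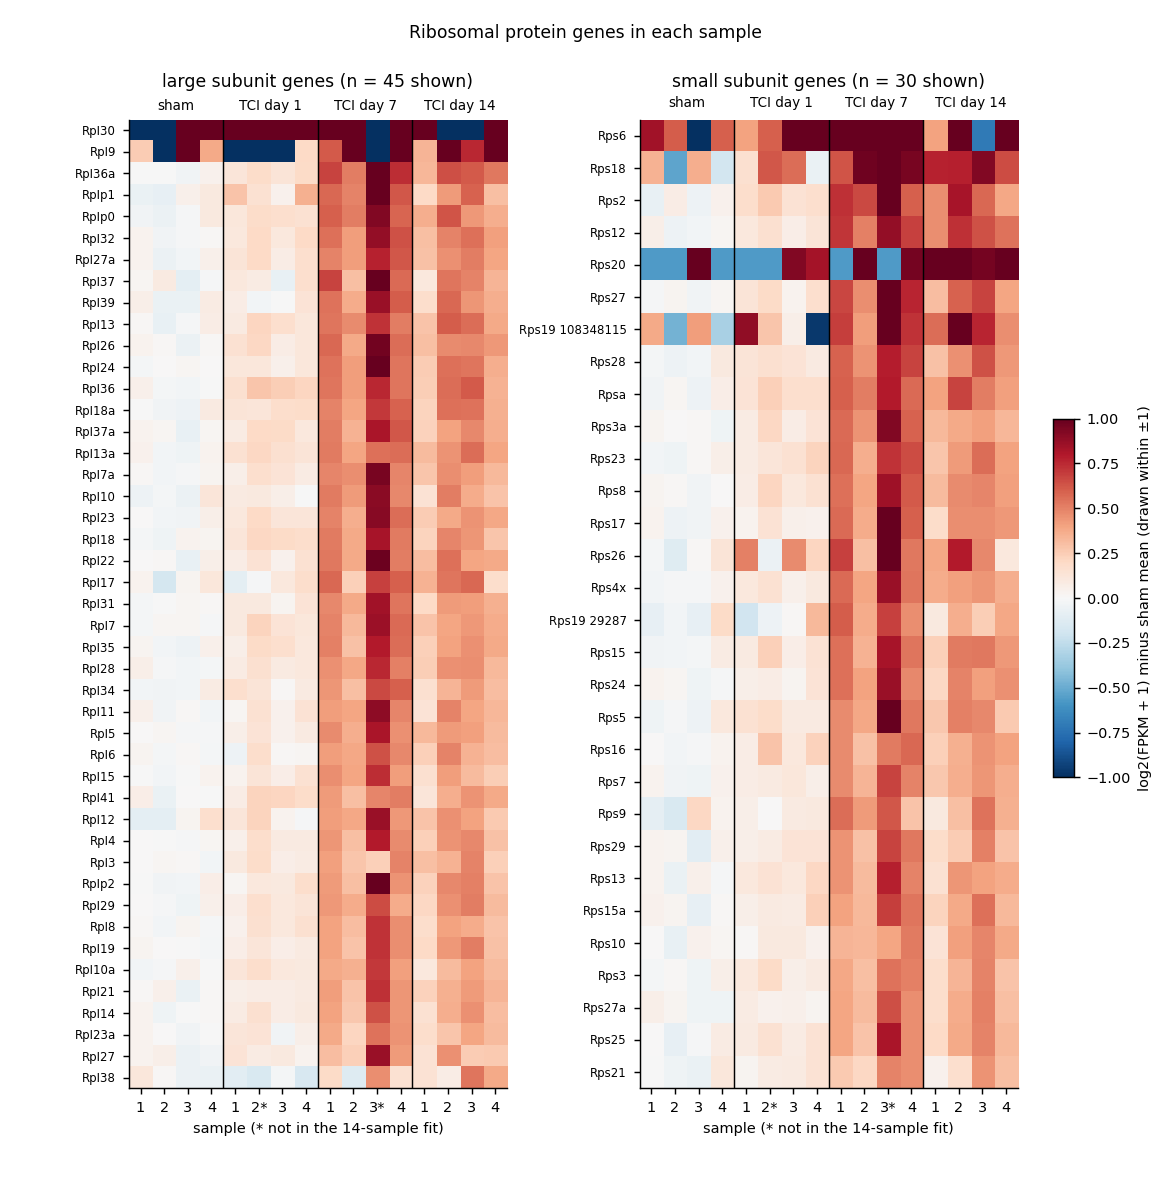
Level of 75 of the 76 tested members in each of the 16 samples, as log2(FPKM + 1) minus the sham mean of the gene, with large subunit genes on the left, small subunit genes on the right, and genes ordered by their day 7 change. Nearly all rows are close to 0 in sham and above 0 in days 7 and 14, while Rpl30, Rpl9, Rps6, Rps20 and Rps19 under ID 108348115 change from sample to sample within groups.

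On day 7 after TCI, 70 of the 76 tested members were higher than in sham and none was lower, at an adjusted p of at most 0.05 in limma on log2(FPKM + 1) with adjustment over all 14023 genes. Over all tested genes 14.5% were called higher and 3.45% lower. The median log2 fold change of the members was 0.47, a 1.39-fold level, with a middle range of 0.41 to 0.51, and the median of all genes was 0.04. Quantile normalization moved the median of all genes to −0.07 and turned the split of all calls from 2028 higher and 484 lower to 1341 and 2320, while 69 members were called higher and none lower, with a median of 0.36. All 76 log2 fold changes were above 0, and in 72 members every TCI day 7 sample lay above every sham sample, which was the case for 23.8% of all tested genes. The rise was modest in size. The study's cut-offs were a log2 fold change of at least 1 and an adjusted p of at most 0.001. Applied to this limma fit, which is not the study's own test, they called no member and 1.83% of all genes.

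The stalk of the large subunit, which recruits the elongation factors, shows the pattern. Rplp0, the base of the stalk, was at 351, 345, 357 and 385 FPKM in sham and at 544, 514 and 538 FPKM on day 7. Its log2 fold change was 0.56 ± 0.064 (SE), with an adjusted p of 0.000135. The groups did not overlap, with the lowest tumor sample far above the highest sham sample. Rplp1 rose by 0.57 ± 0.093 (adjusted p = 0.00123) and its partner Rplp2 by 0.39 ± 0.070 (adjusted p = 0.00206), and all 4 stalk genes, Rpl12 included, were called.

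Rpl5 and Rpl11 form with the smallest rRNA of the large subunit a particle that, when ribosome assembly is disturbed, binds Mdm2 and raises p53. Rpl5 was at 176, 178, 174 and 175 FPKM in sham and at 245, 226 and 242 FPKM on day 7, one of the tightest separations of the family (log2 fold change 0.43 ± 0.041, adjusted p = 6.41e-05). Rpl11 changed by the same amount, 0.43 ± 0.069 (adjusted p = 0.00102). Of the 9 members that line or surround the exit tunnel, where the growing protein leaves the ribosome, 9 were higher, from 0.35 for Rpl23a to 0.51 for Rpl39. The 3 proteins that reach towards the peptidyl transferase centre were higher too, with 0.40 for Rpl3, 0.39 for Rpl8 and 0.47 for Rpl10.

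In the small subunit, Rps2 at the mRNA entry had 277, 307, 281 and 300 FPKM in sham and 484, 461 and 440 FPKM on day 7 (log2 fold change 0.66 ± 0.083, adjusted p = 0.000235). Its neighbors at the entry rose by 0.40 (Rps3) and 0.42 (Rps9). At the mRNA exit, all 5 tested members rose. Rps3a had the smallest adjusted p of the family, going from 225, 223, 223 and 215 FPKM in sham to 329, 303 and 334 FPKM on day 7 (0.54 ± 0.043, adjusted p = 2.35e-05). Another was Rpsa, also known as the laminin receptor, which went from 268, 278, 265 and 288 FPKM to 416, 393 and 408 FPKM (0.56 ± 0.061, adjusted p = 0.000112). Rps15 and Rps23, which lie by the decoding site, rose by 0.48 and 0.53. In the beak of the small subunit Rps12 rose by 0.63 ± 0.066 (adjusted p = 9.14e-05), and Rps10 by 0.40. Rps27a, made as a fusion with ubiquitin, had 170, 166, 158 and 158 FPKM in sham and 214, 203 and 225 FPKM on day 7, a rise of 0.39 ± 0.065 (adjusted p = 0.0013).

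The highest fold change among members that were steady within groups was that of Rps18, a protein of the head of the small subunit, with 0.85 ± 0.20 (adjusted p = 0.0104). Its samples were less even than those of the genes above, at 188, 102, 191 and 130 FPKM in sham and at 229, 291 and 286 FPKM on day 7, and the row of a listed copy moved the opposite way between these samples. The 6 tested members that were not called on day 7 were Rpl38, at 0.07 ± 0.11 (adjusted p = 0.694), and Rpl30, Rpl9, Rps6, Rps20 and Rps19 under ID 108348115. The last 5 are the members whose samples differed by more than 2-fold within at least 1 group, with SEs of 0.35 to 1.47, and they are described with their copies.

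**Figure D2:**
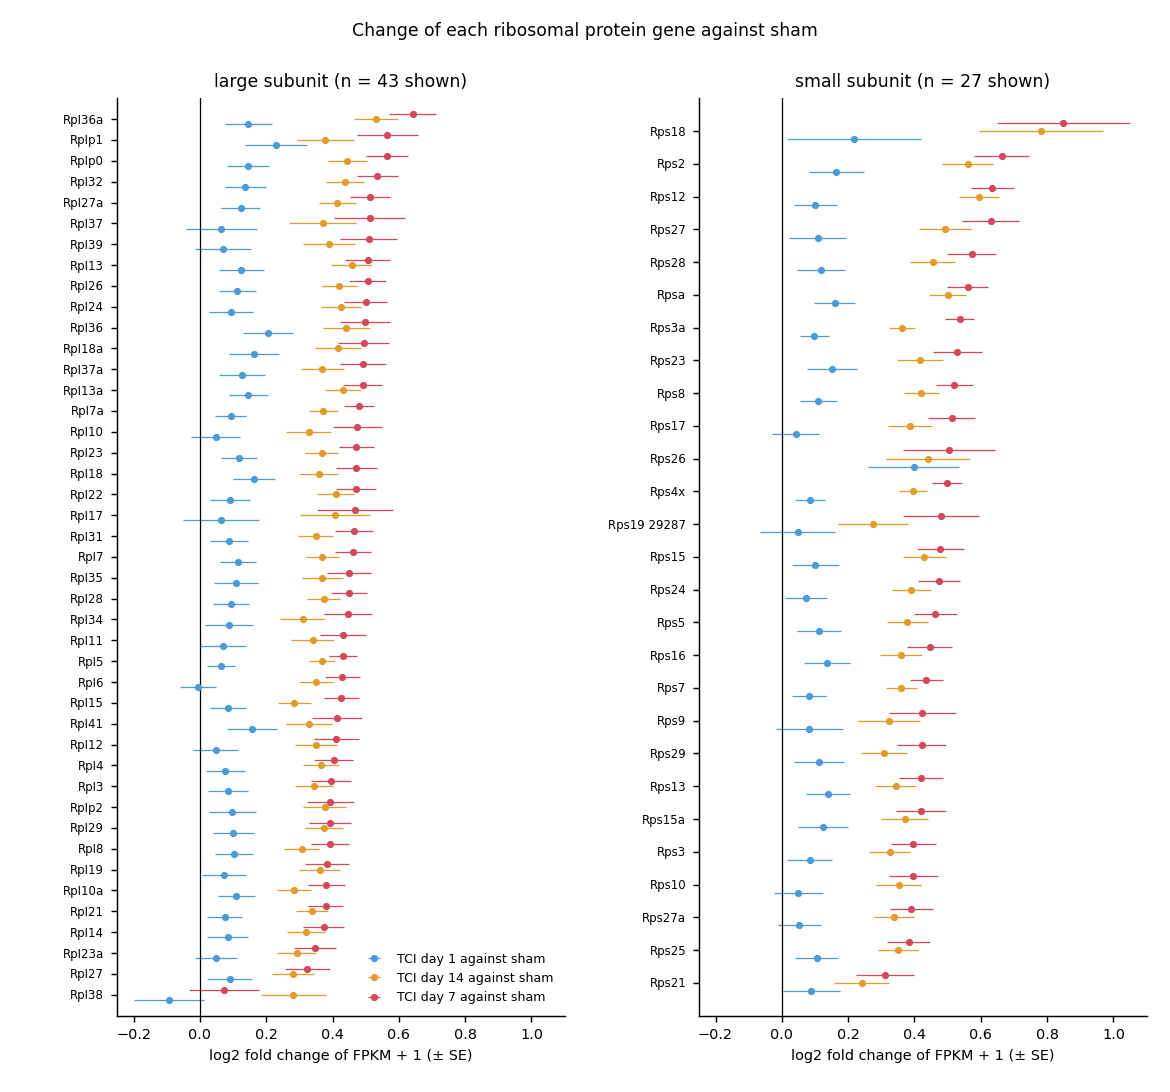
Log2 fold change of FPKM + 1 against sham with its standard error for 70 of the 71 tested members that stayed within 2-fold inside every group, for days 1, 7 and 14, ordered by the day 7 value. The day 7 points lie between 0.07 for Rpl38 and 0.85 for Rps18, the day 14 points mostly just left of them, and the day 1 points near 0.1.

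On day 14, 68 of the 76 members were higher than in sham and none lower, where 11.9% of all genes were called higher and 3.21% lower. The median log2 fold change was 0.37, a 1.29-fold level, beside 0.03 for all genes. The split of all calls turned from 1670 higher and 450 lower to 1101 and 1547 after quantile normalization and to 1144 and 1390 after median centring, where 67 and 62 members were called higher and none lower. At the study's cut-offs, applied to the same limma fit, no member was called, beside 0.642% of all genes. The 68 were all among the 70 of day 7, and both days share the sham samples. The other members of the 70 were Rps21 at 0.24 ± 0.082 (adjusted p = 0.0668) and Rps19 under ID 29287 at 0.27 ± 0.11 (adjusted p = 0.101). Their day 7 calls were close to the threshold. Rps21, a small subunit protein, had 256, 249, 246 and 278 FPKM in sham, 308, 296 and 355 FPKM on day 7 and 265, 288, 351 and 316 FPKM on day 14. Its day 7 change of 0.31 ± 0.089 (adjusted p = 0.0279) was no longer called without TCI day 7 sample 1 or 4 or without sham sample 1, 2 or 3 (adjusted p of 0.0557, 0.123, 0.0614, 0.069 and 0.0702). On day 14 it was called without TCI day 14 sample 1 (0.31, adjusted p = 0.022). The day 7 change of Rps19 under ID 29287, 0.48 ± 0.11 (adjusted p = 0.0107), was not called without TCI day 7 sample 1 (0.42, adjusted p = 0.0555). In 67 members every TCI day 14 sample lay above every sham sample, against 13.8% of all genes. Rplp0 had 462, 555, 484 and 461 FPKM on day 14 (0.44 ± 0.059, adjusted p = 0.000691), and Rpl5 had 220, 237, 234 and 219 FPKM (0.37 ± 0.038, adjusted p = 0.000199). Rps12 had 283, 341, 319 and 298 FPKM and the smallest adjusted p of the family that day, 0.00018, at 0.59 ± 0.061. Rpsa had 363, 439, 392 and 365 FPKM (0.50 ± 0.057, adjusted p = 0.000287). Sample 1 was the lowest day 14 sample of the median member and sample 3 the highest.

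No member was called between days 14 and 7. The median difference of the members, day 14 minus day 7, was −0.08 on the log2 scale, beside −0.02 for all genes. The log2 fold change against sham was smaller on day 14 than on day 7 for 73 of the 76, which share their samples and are not independent. For all genes the middle range of the difference was −0.10 to 0.05. In the limma comparison of the groups 5 of the 76 members had an unadjusted p under 0.05, beside 9.96% of all genes. The smallest adjusted p was 0.187, for Rps3a at −0.17 ± 0.043. Among all genes 0.00713% were called higher on day 14 than on day 7 and 0.0927% lower. The median difference was −0.17 with the left-out day 7 sample in the fit, −0.04 without TCI day 14 sample 1 and −0.05 without TCI day 7 sample 4, with no member called in any of these.

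On day 1 the members moved by little. The median log2 fold change was 0.10, a 1.07-fold level, beside 0.00 for all genes. All genes had a middle range of −0.06 to 0.06, and of the 76 members 72 values were above 0. None was called by limma, as for 0% of all genes, and the smallest adjusted p of a member was 0.873. The study, with another test and its own cut-offs, reported genes changed on day 1 and named the ribosome pathway among those enriched. At an unadjusted p under 0.05 there were 11 members of 76, beside 5.23% of all genes, and in 44 members every day 1 sample lay above every sham sample, beside 6.17% of all genes. Rps2 may serve as an example, with 277, 307, 281 and 300 FPKM in sham and 329, 322 and 327 FPKM on day 1 (log2 fold change 0.16 ± 0.083). The single gene with the largest value among steady members was Rps26, at 0.40 ± 0.14 (SE), a gene with 6 listed copies, and the sum with them changed by 0.11 ± 0.064. Day 7 was higher than day 1 for 63 members, with a median of 0.36, where 9.02% of all genes were called higher and 1.42% lower.

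**Figure D3:**
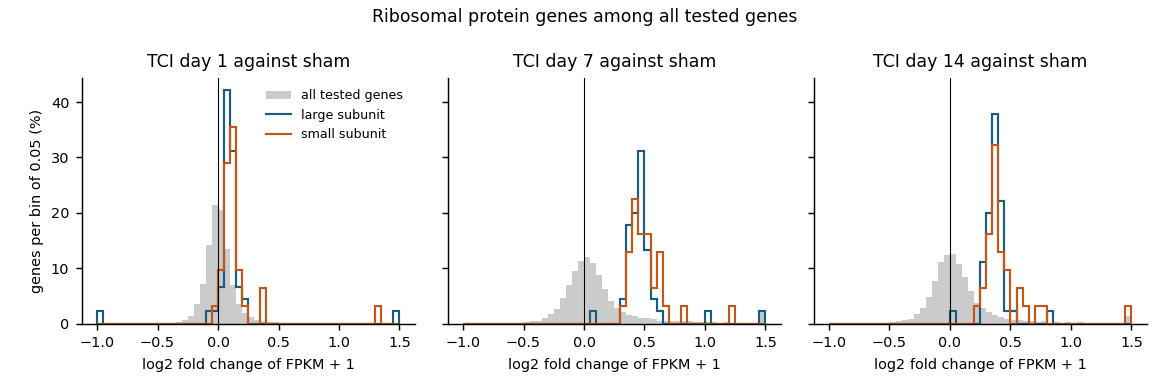
Share of genes per bin of log2 fold change against sham for all 14023 tested genes (grey), the 45 large (blue) and the 31 small subunit members (orange), with values beyond −1 or 1.5 drawn in the end bins. The 2 subunits form a single narrow peak that stands slightly right of 0 on day 1, near 0.47 on day 7 and near 0.37 on day 14.

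The large and the small subunit had close median changes. On day 7, 42 of 45 large subunit members and 28 of 31 small subunit members were higher, with medians of 0.46 and 0.48. On day 14 the counts were 42 of 45 and 26 of 31, with medians of 0.37 and 0.39, and on day 1 the medians were 0.09 and 0.10. The difference of the 2 medians, large minus small, was −0.01 for TCI day 1 and −0.02 for both later days. With 1 sample left out in turn it ran from −0.042 to 0.005 for TCI day 7, and for TCI day 14 from −0.027 to −0.0019. In the levels themselves, the median large subunit gene exceeded the median small subunit gene by 0.06 to 0.16 on the log2 scale in the sham samples. The gap was 0.02 to 0.16 in TCI day 1 samples, −0.05 to 0.01 in TCI day 7 samples and 0.01 to 0.10 in TCI day 14 samples. The sham and day 7 ranges of this gap did not overlap, with the gap smaller on day 7, while those of the other days overlapped sham.

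Over the 71 steady members the log2 fold changes had an SD of 0.097 on day 7 and of 0.082 on day 14. Relative to the member mean of the same sample, which takes out what the members share, the median standard error was 0.054 on day 7 and 0.050 on day 14, below the spread between genes. The day 7 SD includes Rpl38 at 0.07 and Rps18 at 0.85, the ends of the range, and was not computed without them. The day 7 against day 1 change and the day 14 against sham change had a Pearson r of 0.66 and a Spearman rho of 0.563 over the 71 members, which are not independent replicates and whose fit shares 1 estimate of the spread. Over all 76 members the values were 0.272 and 0.497. For the other pair of comparisons without a shared sample, day 1 against sham and day 14 against day 7, r was −0.273 and rho −0.099 over the 71 members. Over the 71 members the sham level had little relation to the change (rho −0.074 on day 7 and 0.03 on day 14). Over all 76 members rho was −0.238 and −0.088. Over the 14 samples 64 of 76 members followed the member median with an r of at least 0.9, and the median r was 0.972, a value that rests mainly on the step from sham and day 1 to days 7 and 14. The median was taken over these same members, and the share of all genes that reached 0.9 was not computed. Genes outside the family reached it too, such as Rack1 with an r of 0.988.

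To ask which single members left the group, each value was taken relative to the mean of the 76 members in the same sample and the fit was repeated over all genes. On this scale most genes fall, 80.5% of all tested genes on day 7 and 77% on day 14, while 4.11% and 3.14% rise, since the members themselves rose. On day 1 limma called no member and 3 had an unadjusted p under 0.05. On day 7, 14 members departed, 2 higher and 12 lower, and on day 14, 8 departed, 3 higher and 5 lower. With most genes called on this scale, the adjustment over all genes altered the p-values little. At an unadjusted p under 0.05 there were 16 members on day 7 and 8 on day 14. The adjusted p-values of departures are thus close to unadjusted ones over the 76 members. The mean is drawn up by the unsteady members, so the fit was also run relative to the member median, an alternative chosen after seeing the data. It called 5 higher and 2 lower on day 7, where 4.46% of all genes were higher and 75.7% lower. On day 14 it called 6 higher, where 3.36% of all genes were higher and 72.7% lower. Rps12, Rpl36a, Rpl38 and Rpl27 were called both ways on day 7, and Rps12, Rpl36a and Rps20 on day 14.

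Rps12 (gene ID 65139), a small subunit protein at the beak, gained on the rest. Relative to the member median of its own sample it stood at 0.00, −0.09, −0.08 and −0.06 in sham, at −0.01, −0.08 and −0.03 on day 1, at 0.16, 0.08 and 0.11 on day 7 and at 0.16, 0.24, 0.12 and 0.15 on day 14 (log2). Every sample of days 7 and 14 was above every sham and day 1 sample. Its departure from the member mean was 0.19 on day 14 (adjusted p = 0.00357) and was called in all 25 settings tried, and it was 0.12 on day 7 (adjusted p = 0.0499), called in 9 of 25. Rpl36a (gene ID 292964), a large subunit protein near the exit site for spent tRNA, also gained. It stood at −1.62, −1.60, −1.64 and −1.60 in sham and at −1.56, −1.57 and −1.52 on day 1. It was at −1.43, −1.46 and −1.39 on day 7 and at −1.54, −1.40, −1.46 and −1.42 on day 14. Its day 1 samples were already above every sham sample, and TCI day 14 sample 1 was below TCI day 1 sample 4. Its departure was 0.13 on day 7 (adjusted p = 0.0351) and 0.12 on day 14 (adjusted p = 0.0306), called in 17 and 16 of 25 settings. The near copy Rpl36al, a separate gene, rose by less, at 0.31 ± 0.074 on day 7 (adjusted p = 0.0113). Rps2, which had one of the largest rises, departed by 0.15 from the mean on day 7 (adjusted p = 0.124) and by 0.21 from the median (adjusted p = 0.0209).

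Rpl38 (gene ID 689284), a large subunit protein known from mice for its role in the translation of Hox mRNAs, was the member that took least part in the day 7 rise. It had 265, 246, 235 and 233 FPKM in sham, 227, 241 and 219 FPKM on day 1, 279, 223 and 272 FPKM on day 7 and 270, 257, 354 and 317 FPKM on day 14. The day 7 samples straddled the sham samples, and those of day 14 lay mostly above them. Relative to the member median of the same sample, Rpl38 was already below its sham range on day 1. It stood at 0.31, 0.23, 0.14 and 0.11 in sham and at 0.03, 0.09 and −0.06 on day 1, where no departure was called. The departure from the member mean was −0.44 on day 7 (adjusted p = 0.00132), called in 24 of 25 settings, and no departure was called on day 14. On day 14 it exceeded sham by 0.28 ± 0.098 (adjusted p = 0.072), and without TCI day 14 sample 2 by 0.35 (adjusted p = 0.0351). After quantile normalization or centring of each sample on its median, its day 7 change against sham was −0.066 and −0.037 in place of 0.072. The exception among the settings was the sum with its listed copies, Rpl38-ps8 and Rpl38-ps9, which gave 283, 277, 235 and 233 FPKM in sham and 328, 284 and 306 FPKM on day 7. The change of the sum was 0.25 ± 0.11 (adjusted p = 0.149) and no departure was called, so the lag of Rpl38 was larger in its own row than in the sum.

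Rpl27, a large subunit protein, had a smaller rise than most on day 7, 0.32 ± 0.068 (adjusted p = 0.00564), with 276, 262 and 300 FPKM beside 228, 232, 214 and 218 FPKM in sham. Its departure was −0.19 (adjusted p = 0.0166), and it was not called when TCI day 7 sample 1 or sham sample 2 was left out or when all 16 samples were used. Rps21 (−0.20, adjusted p = 0.0144), Rpl23a (−0.17, adjusted p = 0.0172) and Rpl14 (−0.14, adjusted p = 0.0153) fell behind the mean but were not called against the median. The number of departing members was not steady, and it was between 6 and 18 on day 7 and between 3 and 13 on day 14 with 1 sample left out. All called departures but that of the unsteady Rps20 were smaller in size than the median rise of the same day.

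**Figure D4:**
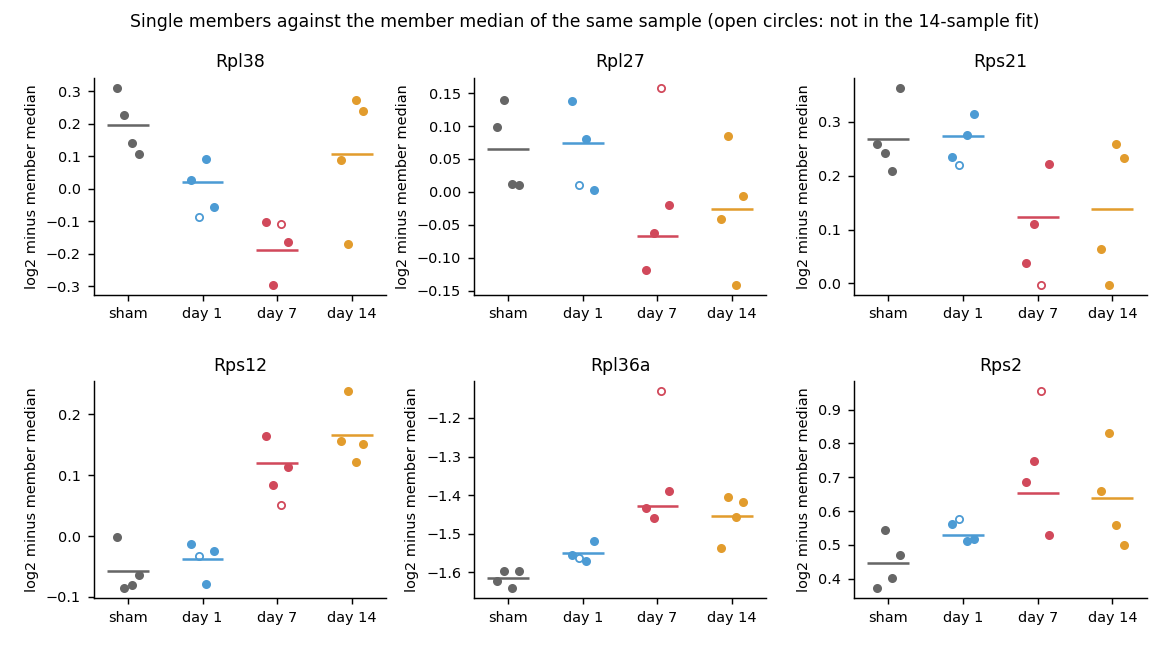
Level of 6 members in each sample relative to the median member of the same sample, on the log2 scale, with bars for the mean of the samples in the 14-sample fit and open circles for the other 2 samples. Rps12 steps up on days 7 and 14, and Rpl36a is above its sham range from day 1 on. Rpl38 is below its sham range on days 1 and 7, and the vertical scales differ between genes.

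Some members were low or uneven beside rows of listed copies, pseudogenes or further genes that RefSeq names after the member. How the reads were shared among these rows was not tested. By RefSeq name, 88 listed copies could be matched to 46 members. Rpl30 had 1.5, 4.44, 77.5 and 89.8 FPKM in sham, 110, 1.78, 2.14 and 99.4 FPKM on day 14, and 2.95 FPKM in the left-out day 7 sample. The listed copy Rpl30l2 was at 178 and 181 FPKM in the first 2 sham samples and at 93.6 and 90.2 FPKM in the other two. The sum of Rpl30 and its copies was 181, 185, 172 and 180 FPKM in sham, 249, 235 and 254 FPKM on day 7 and 220, 241, 249 and 227 FPKM on day 14. The sum was even within groups, and its day 7 change was 0.45 ± 0.049 (adjusted p = 0.000107) where the row of Rpl30 alone gave 2.70 ± 1.47 (adjusted p = 0.235).

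Rps14, a protein of the mRNA exit, was listed between 0 and 0.44 FPKM in all samples, and the copy Rps14-ps7, annotated as a transcribed pseudogene, was at 271 to 469 FPKM. Their sum rose by 0.48 ± 0.052 on day 7 (adjusted p = 0.000106) and by 0.40 ± 0.048 on day 14 (adjusted p = 0.000379). Rpl9 behaved alike, with 0 to 11.8 FPKM in its own row and a sum of 254, 263, 255 and 268 FPKM in sham that rose by 0.32 ± 0.067 on day 7 (adjusted p = 0.00565). Rps20 had 0 to 5.17 FPKM in its own row, so its departure of 1.28 on day 14 (adjusted p = 0.0437) concerns a row close to 0, and the sum with its copies rose by 0.64 ± 0.083 on day 7 (adjusted p = 0.000283). Rpl35a, listed at 0 in 13 of 16 samples, summed with its copies to 139, 140, 125 and 156 FPKM in sham and rose by 0.50 ± 0.11 on day 7 (adjusted p = 0.00749).

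For Rps18 the sum with Rps18l1 was 190, 183, 191 and 195 FPKM in sham, and its day 7 change fell from 0.85 to 0.67 ± 0.065 (adjusted p = 6.66e-05). Rps19 had 66.0, 36.1, 68.0 and 40.1 FPKM under ID 108348115 and 150, 156, 150 and 182 FPKM under ID 29287 in sham, and both summed to 216, 192, 218 and 222 FPKM. This sum rose by 0.50 ± 0.081 on day 7 and by 0.38 ± 0.075 on day 14 (adjusted p = 0.00108 and 0.00511). Rps6, the substrate of the S6 kinases, had no listed copy and stayed uneven, with 21.9, 18.5, 2.10 and 18.4 FPKM in sham and 25.2, 24.9 and 38.4 FPKM on day 7. With such sums, an alternative chosen after seeing the data, 75 of 77 tested families were higher on day 7 and 74 on day 14 (14.5% and 11.9% of all genes), none was lower, and the medians were 0.46 and 0.37. The families not called on day 7 were Rpl38 and Rps6. Which of the rows the RNA came from cannot be told apart in these values.

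**Figure D5:**
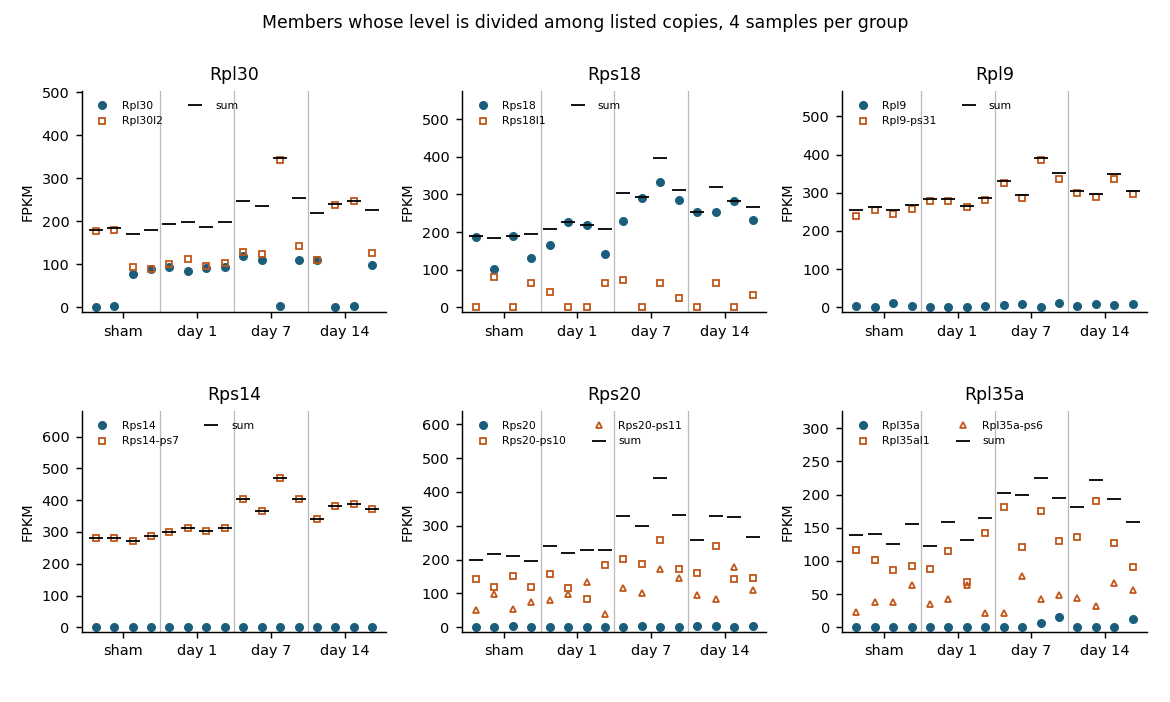
FPKM of 6 members (filled circles), of their largest listed copies by RefSeq name (open symbols) and of the sum over all copies (bars) in each of the 16 samples, 4 per group. The rows of Rpl30 and Rps18 trade with a copy from sample to sample, those of Rpl9, Rps14, Rps20 and Rpl35a are near 0 beside an abundant copy, and all 6 sums are higher on days 7 and 14 than in sham.

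Other genes of the translation machinery were compared by their counts, beside 14.5% of all genes called higher on day 7 and 11.9% on day 14, and by their medians, beside 0.04 and 0.03. Of 8 tested ribosomal proteins or close relatives outside the symbol rule, 5 were higher on day 7 and none lower. Rack1, a scaffold protein on the small subunit, rose from 128 ± 2.93 FPKM (SD, n = 4) to 191 ± 3.74 (SD, n = 3), by 0.58 ± 0.055 (adjusted p = 6.09e-05), and Fau, the fusion precursor of the small subunit protein eS30, by 0.37 ± 0.063 (adjusted p = 0.00144). Of 10 elongation factors and other mRNAs known to carry a TOP motif, 7 were higher on day 7 and 9 on day 14, with medians of 0.28 and 0.23, led on day 7 by the poly(A)-binding protein Pabpc1 (0.59 ± 0.11, adjusted p = 0.00325) and by Eef1a1, which brings aminoacyl-tRNA to the ribosome (0.57 ± 0.061, adjusted p = 0.000111).

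Of 29 initiation factors, 5 were higher and 1 lower on day 7, with a median of 0.08, and 7 were higher on day 14, with a median of 0.10. The highest were Eif3f (0.36 ± 0.045, adjusted p = 0.00023) and Eif3e (0.34 ± 0.037, adjusted p = 0.000111), both subunits of the scaffold factor eIF3. Of 36 genes of ribosome biogenesis, 2 were higher on day 7, the methyltransferase of rRNA Fbl (0.30 ± 0.093, adjusted p = 0.0432) and Pes1 (0.17 ± 0.046, adjusted p = 0.0224), with a median of 0.07, and on day 14 5 were higher, with a median of 0.08. Of 75 tested mitochondrial ribosomal protein genes, 1 was higher on day 7, with a median of 0.04, the same as that of all genes. Among 13 genes of the mTOR and Larp1 pathway the only one called on day 7 was Eif4ebp1, whose protein holds back cap-dependent initiation, with 0.75 ± 0.12 (adjusted p = 0.00114). The differences between these lists and the members were not tested.

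The 5 genes outside the rule whose log2 level followed the mean of the members most closely over the 14 samples were Rps14-ps7 (r = 0.983), Ssr4, a subunit of the translocon-associated protein complex of the endoplasmic reticulum (r = 0.981), Rack1 (r = 0.981), Rpl10-ps13, a listed copy of Rpl10 (r = 0.974), and Tpt1, the translationally controlled tumor protein (r = 0.969).

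Immune cell markers rose on the same days. Of 15 macrophage markers, 15 were higher on day 7 and 13 on day 14, where 14.5% and 11.9% of all genes were called higher. The summed level of these markers was 84.5 to 147 FPKM in sham and 111 to 129 FPKM in TCI day 1. It was 1010 to 1350 FPKM in TCI day 7 and 568 to 1970 FPKM in TCI day 14. All 12 tested T cell markers of 15 were higher on both days, with sums of 6.92 to 11.6 FPKM in sham, 81.5 to 215 on day 7 and 70.2 to 226 on day 14, and 1 of the 15 was at 0 in all sham samples. All 15 neuronal markers were above 1 FPKM in every group. Of these, 5 were lower on day 7 and 4 on day 14 and none higher, beside 3.45% and 3.21% of all genes called lower. Their median log2 fold changes were −0.18 and −0.10. Of 10 proliferation markers 1 was called higher on day 7, but their median log2 fold change was 0.62, with values from 0.09 to 0.79. Their summed level was 12.1 to 14.3 FPKM in sham and 14.5 to 32.6 FPKM in TCI day 7. The part of these cells in the rise of the ribosomal protein genes was not tested. On day 7 sample 2 had the highest macrophage and T cell sums and the lowest median member (273 FPKM) of the 3 fitted samples, while on day 14 sample 2 had the highest macrophage (1970 FPKM) and T cell (226 FPKM) sums and the second highest median member (288 FPKM). Day 14 sample 3, with the highest median member (290 FPKM), had 581 FPKM of the macrophage markers and the lowest T cell sum, 70.2 FPKM.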

How the data were processed

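RNA of 16 rat ganglion samples, 4 per group, had been sequenced as paired reads on a BGISEQ-500. Per the study's methods, reads were aligned with HISAT and Bowtie2 and expression was estimated with RSEM, and the authors deposited 1 table of FPKM per sample, with 2 decimals and 21021 genes. The genome build, annotation and versions are not given in the sources used here, except CASAVA 1.4 in the submitters' processing notes. Library depth is unknown, so no counting interval can be given. No column of the authors' own comparisons was used. Members, gene lists and tests were chosen with earlier results of these data known. FPKM estimates are no counts, so limma 3.58.1 (R 4.3.3) with an intensity trend was fitted to log2(FPKM + 1) for genes of at least 1 FPKM in at least 3 samples, over all 4 groups without the 2 samples that the study left out. Fold changes are on this scale, which understates changes of low genes. p-values were adjusted by Benjamini-Hochberg over all 14023 genes and called at 0.05 or less. Departures of single members were fitted on values minus the mean of the 76 tested members in each sample. Sums over copies named in RefSeq were computed with Python 3.11.15. 75 of 78 members were found in the RefSeq table by gene ID.

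Named members were the 4 highest and 4 lowest changes on days 7 and 14, the up to 5 largest departures in each direction, the 3 highest levels, those not tested, and Rplp0, Rplp1, Rplp2, Rpl5, Rpl11, Rpsa and Rps27a. Other listed genes were named by the 2 largest called changes of a list, or by the 5 highest r. Members named beyond this, among them Rps2, Rps3a and Rps26, were chosen after their values were seen. A member is not reported here on its own, though it is included in all counts and medians over the family. Alternatives were other samples in the fit, scalings, filters, pseudocounts, variance settings, a replicate block and each sample left out. In simulated data for day 7 against sham, with 14023 genes, the fit recovered 73 of 100 genes changed by 0.5 on the log2 scale and 97 of 100 changed by 2, with 12 false calls. Noise was drawn independently for each gene, and the changed genes were picked at random from all tested genes. The rates therefore do not describe highly expressed genes that move together, as the members do.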

Additional observations from a re-analysis of the deposited data

Results flagged for a closer look

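In 7 of 104 groups of 4 samples, 1 sample of a named member stood apart from the other 3, with a gap to its nearest neighbor beyond Dixon's critical value, where chance gives about 1 group in 20. The TCI day 7 sample that the study left out was apart in 3 members, with 294 FPKM of Rpl11 beside 221 in the nearest sample, 524 FPKM of Rplp2 beside 354, and 2.95 FPKM of Rpl30 beside 110. The other 4 were in rows at or near 0, with 11.9 FPKM of Rpl35a in TCI day 14 sample 4, 4.11 FPKM of Rpl9 in TCI day 1 sample 4, 0.11 FPKM of Rps14 in TCI day 14 sample 2 and 3.76 FPKM of Rps20 in sham sample 3, where the other samples of the group were listed at 0. Their causes were not tested.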

How the results depend on the processing

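No member was called lower than sham on day 7 or 14 under any setting tried, and the counts of members called higher were within 1.5 times of the reported ones except at the study's cut-offs, which called 0 members on day 7 and 0 on day 14. With 1 sample left out, 65 to 70 members were called on day 7 and 65 to 69 on day 14, and no member was called on day 1. The median change on day 7 was 0.55 with all 16 samples, 0.36 after quantile normalization and 0.36 after centring each sample on its median. On day 14 it was 0.29 and 0.30 under the same scalings. The day 14 against day 7 median was −0.17 with 16 samples and −0.12 to −0.04 with 1 sample left out (lowest without TCI day 7 sample 2, highest without TCI day 14 sample 1).

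The number of members departing from the member mean was the least stable result. On day 7 it was 8 with 16 samples, 7 without the intensity trend, 7 around the member median and 6 to 18 with 1 sample left out (6 without TCI day 7 sample 1, 18 without TCI day 14 sample 3), beside 14 reported. On day 14 it was 3 with 16 samples, 3 with only the groups compared, 5 without the trend, 4 at a mean of at least 5 FPKM and 3 to 13 with 1 sample left out (3 without sham sample 1, 13 without TCI day 14 sample 3), beside 8 reported. These causes were not tested.

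Among single members, the day 14 change of Rpl30 was −0.036 after quantile normalization, −0.068 after median centring, −0.057 as TPM and −0.034 at a pseudocount of 0.1, and −0.94 to 0.89 with 1 sample left out. The day 7 change of Rpl38 was −0.066 and −0.037 under the first 2 scalings. The day 14 change of Rps6 was −0.046 to 1.08 with 1 sample left out, the lowest without sham sample 3.

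Samples with the same replicate number were different animals. Over 18 such pairs their deviations from the group means had a median r of 0.003 (−0.095 to 0.269), and 4 pairs exceeded 0.1. Whether samples of the same number shared a batch cannot be told from these values. With the replicate block 70 members were called on day 7 and 67 on day 14, with medians of 0.47 and 0.37, and 10 members departed on each day.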
